A study of Mus musculus with 4 samples.

Results

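The unfolded protein response (UPR) was examined through 10 genes, Atf6, Ern1, Eif2ak3, Atf4, Xbp1, Ddit3, Trib3, Herpud1, Calr and Sdf2l1, in whole transcriptome sequencing of mouse cortex. The genes were taken by symbol, ignoring case, and 10 of 10 were found among 22919 features, where a feature is a gene symbol or a transcript listed without a symbol. The samples were cortices of 2 APPswe/PS1ΔE9 double transgenic mice (APP, labelled APP/PS1 transgenic) and of 2 wild type mice (WT), all male, 12 months old and on the C57BL/6 background, with no treatment named beyond anaesthesia. The transgenes, which include mutant human APP, are driven by a mouse prion promoter that is active well beyond cortical neurons. The bulk cortex mixes all its cell types, so fewer cells of a type and less RNA per cell cannot be told apart.

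Cells activate the UPR when unfolded proteins build up in the endoplasmic reticulum (ER). Its sensors are the kinase PERK (Eif2ak3), the kinase and endoribonuclease IRE1α (Ern1) and the membrane-bound transcription factor ATF6. PERK slows translation while favouring that of Atf4, IRE1α removes a short intron from Xbp1 mRNA in the cytoplasm, and cleaved ATF6 enters the nucleus. The resulting factors induce chaperones, components of ER-associated degradation and, under lasting stress, the pro-apoptotic factor CHOP (Ddit3). In brain this response has been studied widely in models of protein aggregation.

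The sequences that tie these genes to the pathway are shown first. The stretch that IRE1α removes from Xbp1 lies at chr11:5524282-5524307 of GRCm38 on the plus strand, in the coding part of exon 4 of transcript Xbp1-201, at bases 818 to 843 of that transcript. Its 26 bases are in capitals, with the flanking mRNA in lower case.
Xbp1 intron: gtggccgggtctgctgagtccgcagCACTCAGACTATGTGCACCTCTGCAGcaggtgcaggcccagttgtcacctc
The length is not a multiple of 3, so that removal shifts the reading frame. Of the 4 Xbp1 transcripts counted, 3 contain the stretch and 0 contain the junction formed by its removal, so the counts do not separate spliced from unspliced mRNA.

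Promoter windows from RefSeq, which run from 250 bases before to 50 bases after a start site on GRCm38, were matched for 9 of the 10 genes (all but Atf6). They were searched on both strands for the ER stress response element (CCAAT and CCACG with 9 bases between them), its second form (ATTGG and CCACG with 1 base between them), the UPR element (TGACGTGG) and the C/EBP-ATF response element (TGATGNAA). The first pair share the letters CCACG and no matches overlapped in the genes below. Matches are shown on the strand of the gene, with the matched letters in capitals, because elements with these letters are known to bind ATF6, XBP1 or ATF4.
Calr (chr8:84847050-84847118, minus strand): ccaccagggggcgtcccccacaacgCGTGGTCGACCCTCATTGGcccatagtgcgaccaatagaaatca
Herpud1 (chr8:94386352-94386412, plus strand): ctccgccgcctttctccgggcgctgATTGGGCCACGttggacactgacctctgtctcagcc
Herpud1 (chr8:94386292-94386349, plus strand): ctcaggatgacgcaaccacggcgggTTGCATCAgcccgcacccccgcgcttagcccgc
Hspa5 (chr2:34772000-34772068, plus strand): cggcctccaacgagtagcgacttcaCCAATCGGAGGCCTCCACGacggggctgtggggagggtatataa
Calr held the ER stress response element on the opposite strand, 162 bases before the RefSeq start, and Herpud1 held its second form 52 bases and a C/EBP-ATF element 112 bases before the start. Trib3 held a C/EBP-ATF element 15 bases past its RefSeq start, which is upstream of the GENCODE gene interval given below, and the windows of the other 6 genes held 0 matches. Hspa5, which encodes the chief ER chaperone BiP, is shown because it is the pathway gene that passed the test below. Over all 32851 windows, the ER stress response element was found in 0.119%, its second form in 0.0365%, the UPR element in 0.676% and the C/EBP-ATF element in 3.97%. A match describes letters and not binding.

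The 4 libraries, named APP-3, APP-4, WT-1 and WT-2 as in the table, held 28525117 to 43881196 counts. As a check of the labels, App rose in APP by a log2 fold change of 1.53 (adjusted p = 2.82e-06), where reads of the human transgene may be included. Prnp, whose promoter sequence drives the transgenes, rose by 1.72 (adjusted p = 1.83e-06). Whether transgene reads were counted as Prnp was not tested. Unless another test is named, adjusted p-values come from the quasi-likelihood test of edgeR, adjusted by Benjamini and Hochberg's method over all features. For 2 mice against 2, the smallest two-sided p of an exact permutation test is 0.333. The p-values given here can be lower because edgeR fits a model to the counts and borrows its estimate of spread from many genes. Values of a genotype are given in the order of the library numbers.

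Between APP and WT cortex, 0 of the 10 UPR genes passed an adjusted p of 0.05, against 1.32% of all features. With a fold change of at least 1.5 as well, the background was 0.982%. The count of UPR genes was also 0 with edgeR's exact test (2.57% of all features), its likelihood ratio test (2.79%) and DESeq2 (1.71%). An unadjusted p under 0.05 was reached by 2 genes, Atf6 and Xbp1, and by 11.1% of all features. Apart from Trib3, which had few counts, the estimates were small, and most were below WT. They were below 0 on the log2 scale for 9 of the 10 genes, with a median of -0.15, against 49.2% of all features and a median of 0.0038. In 6 genes (Atf6, Eif2ak3, Xbp1, Trib3, Calr and Sdf2l1) both APP libraries were below both WT libraries, an arrangement seen in 20.0% of all features, and in 0 were both above, against 21.1%.

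**Figure D1:**
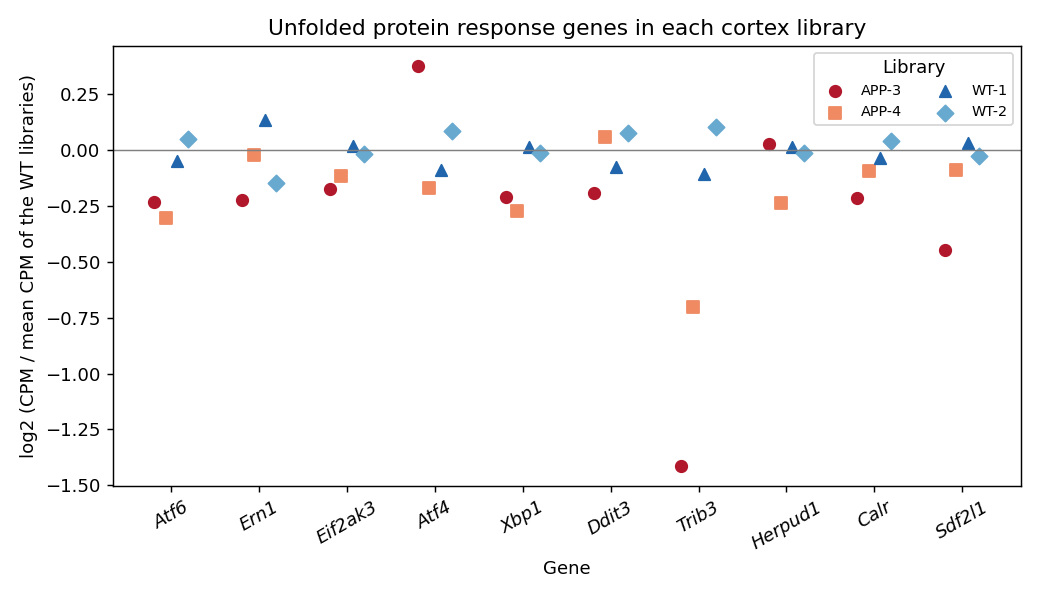
Level of each of the 10 genes in each library, as the log2 of its CPM over the mean CPM of the WT libraries, with 1 point per library. In 6 genes both APP points lie below both WT points, whereas Atf4 is above the WT libraries in APP-3 and below them in APP-4.

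Among the sensors, Atf6 (chr1:170704674-170867771, minus strand) gave the smallest p. Its normalised read count was 98.6 and 93.8 CPM in APP against 112 and 120 CPM in WT, where CPM is the count per 1000000 of the TMM-normalised library size. The groups did not overlap, with means of 96.2 ± 3.37 and 116 ± 5.58 CPM (SD, n = 2). The log2 fold change was -0.27 ± 0.069 (SE, where SE is the standard error and the adjusted p was 0.128), which is 83.1% of the WT level with a 95% interval for this gene alone of 74.7% to 92.4%. With a library left out, the adjusted p fell below the threshold without APP-3 (0.000158) or without APP-4 (0.0116) but was 0.418 without WT-1 and 0.873 without WT-2 (edgeR). Gm23523 and Gm25235 overlap Atf6 in the annotation. In fits without a library the lone library is assumed to vary like the group that keeps 2.

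Eif2ak3, which encodes PERK (chr6:70844515-70905245, plus strand), had 25.9 and 26.9 CPM in APP against 29.5 and 28.8 in WT. The groups were close but separate, and the level in APP was 90.3% of WT (log2 fold change -0.15 with a standard error of 0.079, adjusted p = 0.552). Ern1, which encodes IRE1α (chr11:106394650-106487852, minus strand), had 11.5 and 13.2 CPM in APP against 14.7 and 12.1 in WT. Eif2ak3 overlaps Gm23346 and Gm43292 in the annotation. The groups of Ern1 overlapped, with a log2 fold change of -0.12 ± 0.13 (SE, adjusted p = 0.822) that changed sign to 0.024 without WT-1.

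Of the transcription factors, Xbp1 (chr11:5520659-5525893, plus strand) showed the tightest replicates. It had 69.5 and 66.5 CPM in APP against 81.2 and 79.6 in WT. Both APP libraries were thus below WT, with means of 68.0 ± 2.12 and 80.4 ± 1.12 CPM (SD, n = 2). The log2 fold change was -0.24 ± 0.068 (SE, adjusted p = 0.164), or 84.6% of WT with an interval of 76.2% to 93.9%. Only without APP-3 did it pass, with an adjusted p of 0.00284 (edgeR).

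Atf4 (chr15:80255184-80257541, plus strand), the factor translated under PERK signalling, was the exception in direction. Its level was 80.4 CPM in APP-3 but 55.2 in APP-4, while the WT libraries had 58.3 and 65.8. The APP libraries therefore lay on either side of WT, and their SD of 17.9 CPM exceeded the difference of the means, 67.8 and 62.0 CPM. The log2 fold change was 0.13 ± 0.14 (SE, adjusted p = 0.833). It was 0.38 without APP-4, which passed (adjusted p = 2.90e-05, edgeR), and -0.17 without APP-3, so that a single library decided its direction.

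Ddit3 (chr10:127290774-127296288, plus strand), which encodes CHOP, had 9.30 and 11.1 CPM in APP against 10.1 and 11.2 in WT. The groups overlapped, and the level was 95.9% of WT with an interval of 78.1% to 118% (adjusted p = 0.930). Its sign changed without APP-3 (0.056) and without WT-2 (0.015). The annotation places Mars and Gm4189 over parts of this locus, and whether the counting used strand is not given in the sources used here.

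The effectors were led by Calr (chr8:84841850-84846934, minus strand), which encodes the calcium-binding ER chaperone calreticulin. It had 195 and 212 CPM in APP against 221 and 233 in WT. The groups did not overlap, but the gap between them, from 212 to 221 CPM, was smaller than the gap within either. The level in APP was 89.8% of WT (interval 80.5% to 100.2%, adjusted p = 0.465), and it passed without APP-4 (adjusted p = 0.00758, edgeR). The pseudogene Calr-ps is 92.5% identical to Calr over 495 bases and is not among the transcripts listed. Whether reads from it were counted as Calr therefore cannot be told.

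Sdf2l1 (chr16:17130138-17132383, minus strand), a partner of BiP in the ER lumen, had 5.29 and 6.78 CPM in APP against 7.36 and 7.07 in WT. The groups were separate, with APP-3 the lowest, and the log2 fold change of -0.26 ± 0.16 (SE) had an adjusted p of 0.616. It ran from -0.45 without APP-4 to -0.096 without APP-3. Herpud1 (chr8:94386438-94395377, plus strand), a membrane component of ER-associated degradation, had 39.2 and 32.7 CPM in APP against 38.9 and 38.2 in WT. APP-3 was level with WT and APP-4 below it, with a log2 fold change of -0.10 ± 0.093 (SE, adjusted p = 0.769) that became 0.024 without APP-4. Herpud1 overlaps Gm15890.

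Trib3 (chr2:152337422-152344032, minus strand), a pseudokinase induced by ATF4 and CHOP, was barely detected. The APP libraries held 4 and 7 of its counts and the WT libraries 15 and 14. Its log2 fold change of -1.0 ± 0.60 (SE, adjusted p = 0.608) was the lowest of the 10 and by far the least certain, with an interval from 19.9% to 126% of WT. At this depth a change in Trib3 could not be resolved.

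**Figure D2:**
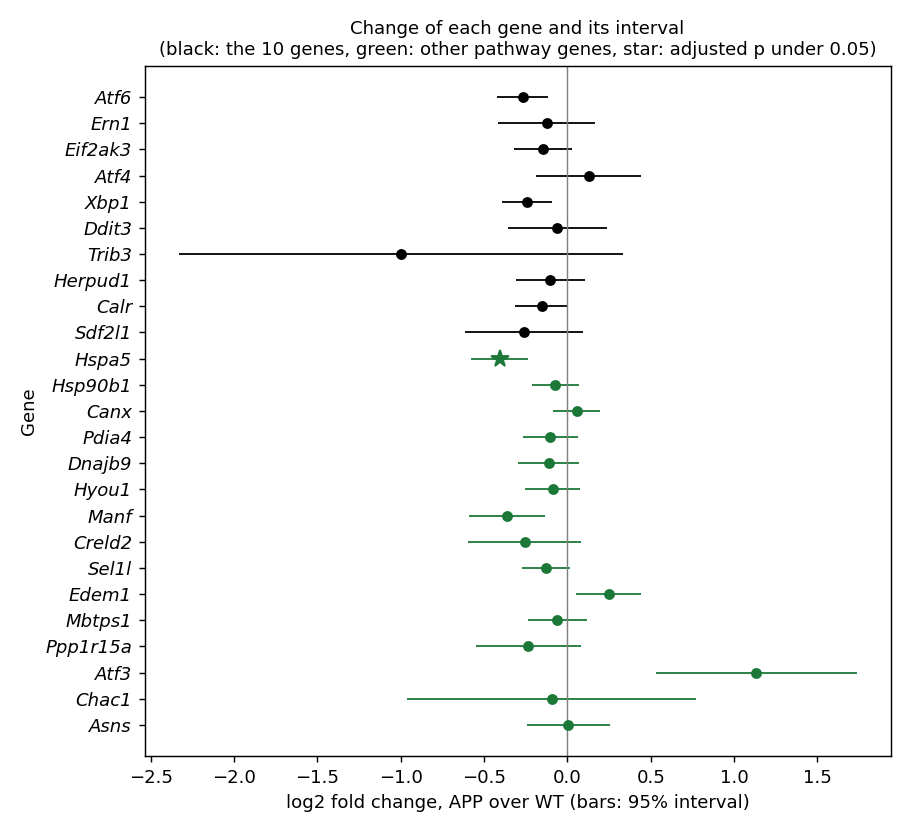
Log2 fold change of APP over WT for the 10 genes (black) and 15 other pathway genes (green), with the 95% interval of each gene alone as bars. Of the genes drawn, only Hspa5 (star, -0.41) passed an adjusted p of 0.05, and the widest interval is that of Trib3.

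To compare levels between genes, counts were divided by transcript length. In WT, Calr was the most abundant, at 107 ± 3.0 CPM per kilobase (SD, n = 2), followed by Xbp1 at 39.8 ± 0.680 and Atf4 at 36 ± 3.11. Herpud1 had 20.6 ± 0.264, Atf6 16.0 ± 0.770 and Ddit3 11.9 ± 0.877 CPM per kilobase. Sdf2l1 had 6.51 ± 0.183, Eif2ak3 6.47 ± 0.110, Ern1 2.25 ± 0.321 and Trib3 0.181 ± 0.0188. The sensor kinases thus lay near the bottom of the order and the chaperone calreticulin at the top. Between neighbours in this order, the libraries of Xbp1 overlapped those of Atf4 and the libraries of Sdf2l1 those of Eif2ak3, and the other neighbours were separate in all 4 libraries.

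**Figure D3:**
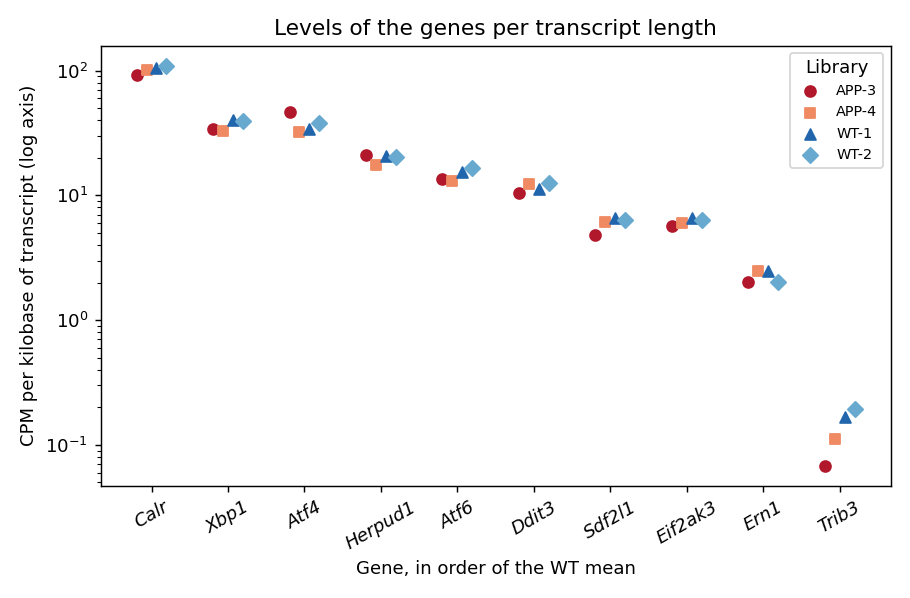
CPM per kilobase of transcript (log axis) for the 10 genes in order of their WT mean, with 1 point per library. Calr, at 107 in WT, and Trib3, at 0.181, mark the ends of the order.

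The deposited rows are transcripts, and 19 of them carry the symbols of these genes, 14 protein coding and 5 with a retained intron. Of the 19, 0 passed an adjusted p of 0.05 by edgeR's quasi-likelihood test over all transcripts, against 1.06%. The count was 0 with the exact test too. An unadjusted p under 0.05 was reached by 3 transcripts (Atf6-201, Xbp1-201 and Calr-201) in the quasi-likelihood test. The share of all transcripts reaching it was not computed, so this count is not a result about these genes. A main transcript held nearly all the counts of each gene, such as Xbp1-201 with 95.1% to 95.6% and Calr-201 with 97.0% to 98.7% of the gene's counts in a library. Calr-203, with a retained intron, was counted 53 and 114 times in APP and 114 and 52 times in WT, so that it differed more between mice of a genotype than between genotypes (log2 fold change 0.43, standard error 0.30, adjusted p = 0.753 by edgeR). Ddit3-202, with a retained intron, was counted only 22 and 28 times in APP and 31 and 24 times in WT. In CPM it had 0.765 and 0.899 in APP against 0.703 and 0.678 in WT, without overlap (adjusted p = 0.897 by edgeR). Its interval ran from 73.2% to 199% of WT, and the coding Ddit3-201 overlapped between groups. The share of all transcripts without overlap was not computed, so the separation of Ddit3-202 is not a result about Ddit3.

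Beyond the 10 genes, the pathway was followed in lists of sensors and signalling genes, PERK and ATF4 targets, ER chaperones and folding enzymes, and ER-associated degradation. Of the 17 ER chaperones and folding enzymes counted, 1 fell and 16 did not pass. Estimates were below 0 in 13 (49.2% of all features), with a median log2 fold change of -0.088. An unadjusted p under 0.05 was reached by 4 (11.1% of all features), all lower in APP. They were Hspa5, Manf and, named after their values were seen, Ero1lb (log2 fold change -0.34, adjusted p = 0.138) and Dnajb11 (-0.23, adjusted p = 0.370). The gene that fell was Hspa5. It had 253 and 287 CPM in APP against 366 and 349 in WT, and the groups were well apart. The log2 fold change was -0.41 ± 0.077 (SE, adjusted p = 0.0339), or 75.5% of WT, where 0.192% of all features fell. Its adjusted p was 0.0103 with edgeR's exact test, 0.00963 with its likelihood ratio test and 0.000250 with DESeq2. When transcripts were summed by gene identifier it was 0.0518 (edgeR's quasi-likelihood test). Hspa5 passed without APP-3 (log2 fold change -0.32) and without APP-4 (-0.50), but not without WT-1 and not without WT-2.

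The other chaperones named here did not pass. Manf, a secreted ER stress factor, had 16.4 and 19.4 CPM in APP against 23.8 and 22.2 in WT. Its log2 fold change was -0.36 (adjusted p = 0.164), and -0.49 without APP-4. Creld2, Dnajb9 (ERdj4), Pdia4 (a disulfide isomerase) and Hyou1 (an ER HSP70-like chaperone) had log2 fold changes of -0.26, -0.11, -0.10 and -0.088. Hsp90b1 (GRP94) had -0.072 and Canx, the membrane-bound lectin chaperone related to calreticulin, 0.055. Both APP libraries were below both WT libraries in 10 of the 17 genes (20.0% of all features) and above in 1 (21.1%). The corresponding counts were 1 below and 5 above of the 13 PERK and ATF4 targets, 2 and 5 of the 14 sensors and signalling genes, 2 and 2 of the 12 degradation genes, and 4 and 0 of the 12 cytosolic heat shock genes described below.

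PERK and ATF4 targets had estimates on both sides of 0. Of the 13 counted, 0 passed (edgeR's quasi-likelihood test, 1.32% of all features) and 4 had an unadjusted p under 0.05 (11.1%). These 4 were all higher in APP and were Atf3 and, named after their values were seen, Atf5 (log2 fold change 0.76, adjusted p = 0.283), Stc2 (0.86, adjusted p = 0.359) and Slc7a11 (0.26, adjusted p = 0.217). The median log2 fold change was 0.0057, turning to -0.15 without APP-3 and rising to 0.24 without APP-4. Atf3, a stress-induced transcription factor, had 2.56 and 2.20 CPM in APP against 0.863 and 1.32 in WT, giving a log2 fold change of 1.13 ± 0.27 (SE, adjusted p = 0.0942). It passed with edgeR's exact test (adjusted p = 0.0136) and its likelihood ratio test (adjusted p = 0.00983), and not with DESeq2 (adjusted p = 0.204). Leaving out a library gave an adjusted p of 0.0274 without APP-3, 0.00460 without APP-4 and 0.0452 without WT-2, but 0.505 without WT-1 (edgeR). Asns, the asparagine synthetase, was on average level between genotypes (log2 fold change 0.0057, adjusted p = 0.993). Its APP libraries differed, however, at 76.4 CPM in APP-3 against 57.7 in APP-4, and its log2 fold change was -0.22 without APP-3. Chac1, a glutathione-degrading enzyme, had 3.42 CPM in APP-3 and 1.16 in APP-4, on either side of the WT values of 2.09 and 2.79. Its log2 fold change was -1.07 without APP-3. Ppp1r15a (GADD34), which reverses the PERK signal, had 5.91 and 5.97 CPM in APP and 7.22 and 6.74 in WT (adjusted p = 0.612).

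In all, 12 of the 13 targets (all but Ppp1r15a) were higher in APP-3 than in APP-4, as was Atf4 itself, with a median log2 ratio of 0.27, against 50.2% of the features above 1 CPM. The corresponding count between WT-1 and WT-2 was 4 of 13. Ddit3 and Trib3, also induced by ATF4 but not in that list, went the other way in APP, Ddit3 with 269 counts in APP-3 against 343 in APP-4 (log2 ratio -0.25) and Trib3 with 4 against 7. This is a description of 2 mice, found after their values were seen, and it carries no test.

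Among the 14 sensors and signalling genes counted, 0 passed with edgeR's quasi-likelihood test (1.32% of all features), 2 had an unadjusted p under 0.05 (11.1%), and the median log2 fold change was 0.039. Mbtps1, the protease that begins the cleavage of ATF6, had a log2 fold change of -0.061 (adjusted p = 0.863). Eif2ak2, which encodes PKR, a kinase that is activated by viral RNA and phosphorylates the same factor as PERK, is named after its values were seen. It had 22.4 and 21.3 CPM in APP against 17.4 and 16.9 in WT, giving a log2 fold change of 0.35 with an adjusted p of 0.116. Eif2ak2 passed with edgeR's exact test (adjusted p = 0.0429) and likelihood ratio test (adjusted p = 0.0401). The other gene with an unadjusted p under 0.05 was Wfs1, also named after its values were seen. Wfs1 had 36.1 and 43.2 CPM in APP against 33.0 and 33.8 in WT (log2 fold change 0.25, adjusted p = 0.316).

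In ER-associated degradation, 0 of 12 genes passed with edgeR's quasi-likelihood test (1.32% of all features) and 1 had an unadjusted p under 0.05 (11.1%), with a median of -0.015 that was 0.0099 without APP-4. That gene was Edem1, which delivers misfolded glycoproteins for degradation. It was higher in both APP libraries, at 29.6 and 28.3 CPM against 25.7 and 23.0 in WT (log2 fold change 0.25, adjusted p = 0.286). Sel1l, an adaptor of the degradation complex, had 153 and 146 CPM in APP against 162 and 164 in WT (adjusted p = 0.526). As a neighbouring stress response, the cytosolic heat shock genes had 0 of 12 calls, 2 with an unadjusted p under 0.05 (against the same 1.32% and 11.1%), and a median of -0.055. With DESeq2 the calls in these lists came to 1 as well, again Hspa5.

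**Figure D4:**
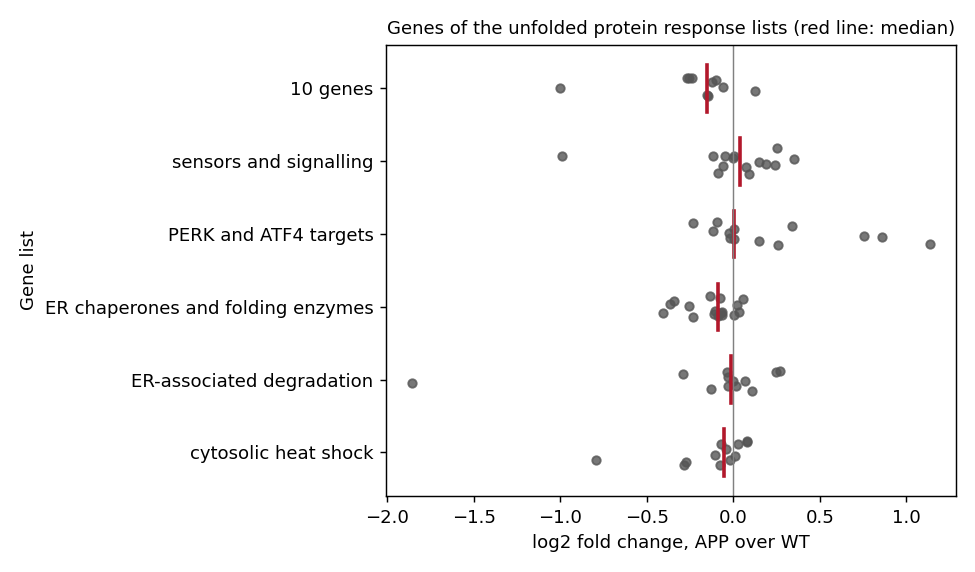
Log2 fold change of APP over WT of each counted gene (points) in the 10 genes and 5 further lists, with the median of each list in red. The medians run from -0.15 for the 10 genes to 0.039 for the sensors and signalling genes.

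Marker genes of other cell types differed between these cortices. Of 12 microglial markers 9 rose, against 1.13% of all features, and their summed level was 459 to 562 CPM in APP against 279 to 281 in WT. Of 8 oligodendrocyte markers 3 rose (1367 to 1571 against 1001 to 1126 CPM), and of 8 astrocyte markers 2, Gfap and Aqp4 (4729 to 5093 against 3855 to 4225 CPM). Of 7 neuronal markers, 0 passed with edgeR and 1, Slc17a7 (82.2% of WT), with DESeq2 and by an unadjusted p under 0.05 (1.71% and 11.1% of all features). Their estimates were below 0 in 5 of 7 (49.2% of all features), with a median log2 fold change of -0.12, beside -0.15 for the UPR genes. Of the 7, 3 were lower in APP without overlap (20.0% of all features) and 0 were higher (21.1%). Their sum was 3988 to 4755 CPM in APP and 4399 to 4484 in WT, with Syt1 alone at 1307 in APP-3 and 662 in APP-4. The 6 endothelial markers gave 0 calls with edgeR and with DESeq2 (1 unadjusted p under 0.05 with edgeR, and 43.9 to 48.7 against 45.7 to 55.6 CPM). Estimates of the endothelial markers were below 0 in 5 and above 0 in 1, with a median log2 fold change of -0.078. All markers of these lists had counts in every library. Hypothalamic markers were low but 4 of 5 rose (5.74 to 8.91 against 0.789 to 1.23 CPM in sum), with Avp, Oxt and Sim1 each at 0 in a WT library. The part of these differences in the UPR values was not tested.

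The APP mice differed from each other more than the WT mice did in most of the UPR genes, as in most features above 1 CPM. The same held for 12 of 14 sensors and signalling genes, 10 of 13 PERK and ATF4 targets and 10 of 17 chaperones. It held for 9 of 12 heat shock genes and 5 of 12 degradation genes. The absolute log2 ratio of APP-3 to APP-4 exceeded that of WT-1 to WT-2 in 8 of the 10 UPR genes, against 62.3% of the features above 1 CPM, with medians of 0.22 and 0.087. It was widest in Trib3 and Atf4, and smallest in Eif2ak3 and Xbp1. When libraries were removed singly, the number of these genes passing was 2 without APP-3 (Atf6 and Xbp1) and 3 without APP-4 (Atf6, Atf4 and Calr), when 8.67% and 6.19% of all features passed. It was 0 without WT-1 (0.867%) and without WT-2 (0.983%).

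**Figure D5:**
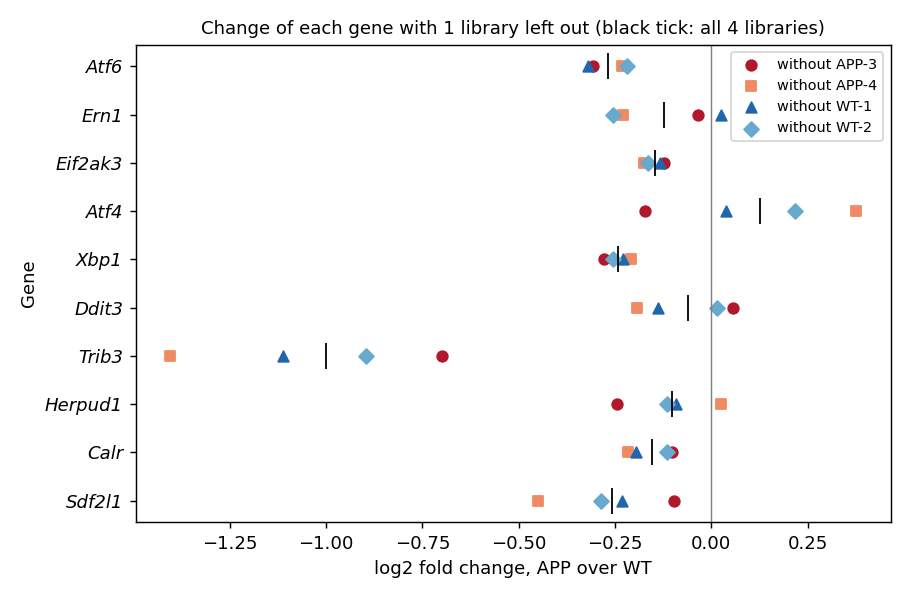
Log2 fold change of APP over WT of the 10 genes with each library left out (symbols) and with all 4 (black tick). Atf6, Eif2ak3, Xbp1, Calr, Sdf2l1 and Trib3 stay below 0 throughout, while Atf4 runs from -0.17 to 0.38.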

How the data were processed

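Cortical RNA depleted of ribosomal RNA was sequenced by the authors as strand-specific pairs of 100 bp. They discarded pairs mapping to ribosomal RNA and aligned the rest with FANSe2 to Ensembl mouse RNA with up to 7 mismatches. The most counted transcript in each library was still mt-Rnr2, a mitochondrial ribosomal RNA, with 7.59% to 10.3% of the counts. They deposited read counts per transcript, without normalization, for 37539 transcripts with at least 10 counts. The Ensembl release is not given in the sources used here. The 4 deposited columns of the authors' own comparison and 4 further columns per library were not used. Column numbers tie each WT column to a mouse, whereas the APP columns could be tied to the genotype alone.

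Counts were summed per deposited symbol, ignoring case, and the 8274 transcripts without a symbol were kept as features. The groups were compared in R 4.3.3 with edgeR 4.0.16 (quasi-likelihood test, TMM, no covariate, all 4 libraries, common dispersion 0.00781) and Benjamini-Hochberg adjustment. CPM values use TMM library sizes. DESeq2 1.42.0, edgeR's exact and likelihood ratio tests, other scalings and filters, sums by GENCODE M21 identifier (98.2% of transcripts matched) and leaving out each library were the alternatives. Similar genes were sought with blastn 2.17.0, at 90% identity or more over 100 bases or more. Lengths and positions come from GENCODE M21 (GRCm38) and promoters from RefSeq. Counts carry counting error only where no replicate spread is given.

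The 10 genes and the lists were chosen with earlier results of these data known. Genes named are these 10, the other pathway genes passing the test and 15 pathway genes set by name. Eif2ak2, Wfs1, Atf5, Stc2, Slc7a11, Ero1lb, Dnajb11 and single markers were named after their values were seen. Listed symbols counted were 14 of 16 (sensors and signalling), 13 of 15 (PERK and ATF4 targets), 17 of 18 (chaperones), 12 of 15 (degradation) and 12 of 14 (heat shock).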

Additional observations from a re-analysis of the deposited data

How the results depend on the processing

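No paired analysis was made because no pairing of APP and WT mice is named. Over the alternatives that keep all 4 libraries, the 10 UPR genes gave 0 calls and 9 estimates below 0, except that the filter asking for 10 counts per library removed Trib3. The number of features passing, 303, and with a fold change of at least 1.5 as well, 225, was 589 and 397 with edgeR's exact test and 640 and 443 with its likelihood ratio test. With each of these tests the sensors and signalling list gave 1 call (Eif2ak2) and the PERK and ATF4 targets 1 (Atf3). Summed by gene identifier, the chaperones gave 0 calls in place of 1. The cause was not tested.

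When libraries were left out singly, the number of features ran from 198 to 1984, and from 185 to 730 with the fold change. Calls ran from 0 to 3 among the 10 genes, 0 to 3 among their transcripts, 0 to 3 among the sensors and signalling genes, 0 to 4 among the PERK and ATF4 targets, 0 to 3 among the chaperones, 0 to 1 in degradation and 0 to 2 in heat shock. Of all features, 8.67% passed without APP-3 and 6.19% without APP-4, against 0.867% without WT-1 and 0.983% without WT-2. The share of all transcripts passing in these fits was not computed. Each of these fits rests on a lone library in a group, so the calls are not a result about the lists. The median log2 fold change ran from -0.21 to -0.15 for the 10 genes, from -0.15 (without APP-3) to 0.24 (without APP-4) for the PERK and ATF4 targets, from -0.033 to 0.0099 for degradation and from -0.096 to -0.019 for heat shock. Estimates that changed sign ran from -0.17 to 0.38 for Atf4, -0.25 to 0.024 for Ern1, -0.19 to 0.056 for Ddit3, -0.24 to 0.024 for Herpud1, -1.07 to 0.50 for Chac1, -0.22 to 0.19 for Asns and -0.15 to 0.018 for Mbtps1. Counts were too few to resolve Trib3.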

Other observations

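Transcripts of 3 of the genes are listed without a symbol and so were not part of the sums above. Atf6-202, a retained-intron transcript, had 2.99 CPM in APP-3 and 3.34 in APP-4, against 3.99 in WT-1 and 3.95 in WT-2, below WT in both APP libraries as the coding Atf6 was (log2 fold change -0.33, standard error 0.18, adjusted p = 0.631 by edgeR over all transcripts). Herpud1-202 had 2.12 and 2.25 CPM in APP against 2.40 and 2.57 in WT (log2 fold change -0.19, adjusted p = 0.875 by edgeR). Herpud1-203, Herpud1-205 and Eif2ak3-204 had between 5 and 50 counts in a library.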
